A study of Mus musculus with 30 samples.

Results

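The 6 genes described here, of 15965 named singly by the annotation, are Lynx1, Rtn4, Rtn4r, Plat, Nptx1 and Nptx2. They are known as brakes on cortical plasticity or as regulators of it, and the question was whether their expression in mouse visual cortex rises as the critical period closes. The members are all 11 probe sets, of 36899 in the series, whose array annotation gives one of these symbols alone. There are 3 for Rtn4, 2 each for Lynx1, Plat and Nptx1, and 1 each for Rtn4r and Nptx2. The tissue was primary visual cortex (V1) of normally reared mice at postnatal day 14 (P14, 3 litters), postnatal day 28 (P28, 3 litters) and postnatal day 60 (P60, 4 litters). No treatment or mutation is given for any group, and strain, sex and the number of animals per litter are not given in the sources used here. Each litter's RNA was hybridised to 3 Affymetrix arrays, called chips A, B and C, and the values are MAS5 signals on a linear scale. Eye opening falls around P14, the critical period for ocular dominance includes P28, and P60 comes after it.

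In the mouse, the visual cortex rewires readily when 1 eye is closed during the critical period and much less in the adult, and several molecules are known to hold that plasticity down. Lynx1 encodes a small membrane-anchored protein that binds nicotinic acetylcholine receptors and dampens their response. Rtn4 encodes Nogo, a membrane protein of myelin and neurons that limits neurite growth, and Rtn4r encodes the Nogo receptor on neurons. Plat encodes tissue plasminogen activator, a secreted protease that opens the extracellular matrix and favours plasticity. Nptx1 and Nptx2 encode secreted neuronal pentraxins that cluster AMPA receptors at excitatory synapses, and Nptx2, also called Narp, is switched on by neuronal activity.

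Rtn4 and Rtn4r had upstream sequence in the RefSeq promoter table (build GRCm38.p6), and the other 4 genes were not matched there. The sequences are shown because Rtn4 is read by 3 probe sets and has 3 annotated starts, from which different Nogo transcripts arise. The transcript that each probe set reads was not assigned here. Each line gives the 250 bases before an annotated start, 5′ to 3′ on the plus strand, and capitals mark a motif match on either strand. The CCAAT box was searched as CCAAT. The GC box was searched as GGGCGG, with overlapping matches counted. The TATA box was searched as TATAAA. The core of the cAMP response element was searched as TGACG. The sequences lie at chr11:29692648-29692897, chr11:29718313-29718562 and chr16:18127392-18127641.
Rtn4, first start: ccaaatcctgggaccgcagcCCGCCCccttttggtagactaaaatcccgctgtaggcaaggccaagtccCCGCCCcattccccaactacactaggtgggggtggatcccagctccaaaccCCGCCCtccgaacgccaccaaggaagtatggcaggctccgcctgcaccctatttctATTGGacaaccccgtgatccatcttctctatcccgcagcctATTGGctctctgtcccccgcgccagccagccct
Rtn4, start furthest downstream: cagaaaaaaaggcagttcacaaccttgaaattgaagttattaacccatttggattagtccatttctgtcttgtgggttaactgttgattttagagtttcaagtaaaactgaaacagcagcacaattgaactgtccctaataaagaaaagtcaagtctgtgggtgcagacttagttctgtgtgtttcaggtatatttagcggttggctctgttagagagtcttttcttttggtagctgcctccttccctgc
Rtn4r, start: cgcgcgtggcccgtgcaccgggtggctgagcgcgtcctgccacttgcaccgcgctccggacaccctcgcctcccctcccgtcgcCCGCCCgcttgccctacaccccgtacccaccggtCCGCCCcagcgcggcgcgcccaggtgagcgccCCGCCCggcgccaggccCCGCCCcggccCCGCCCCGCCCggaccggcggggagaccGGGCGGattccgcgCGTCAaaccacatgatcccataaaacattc
The first Rtn4 window held 2 CCAAT matches and 3 GC boxes in 61.2% G and C, whereas the window of the start furthest downstream held no match to any of the 4 motifs in 39.2% G and C. The Rtn4r window held 7 GC boxes, some overlapping, and 1 TGACG match in 77.2% G and C. Over all 32851 windows of the same length in the table, 33.8% held CCAAT, 32.7% the GC box, 12.4% TATAAA and 17.8% TGACG. The second Rtn4 start lies close behind the first and is not shown.

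The arrays were not of even quality. The 3′ probe sets of P14 litter 1 exceeded the 5′ ones by 9.57 to 12.2 times for Gapdh and 12.2 to 12.8 for Actb, against 0.741 to 1.32 and 1.04 to 1.5 on the other 27 arrays. P60 litters 1 and 4 on chips A and B and P60 litter 2 on chip C had low mean correlations with other arrays, between 0.86 and 0.923. Apart from P14 litter 1, the other arrays of each chip were higher. That range pools the 3 chips, and some arrays that were kept fell in it. These were P14 litter 2 on chip B, at 0.923, and every kept array of chip C. Those of chip C ran from 0.898 (P60 litter 3) to 0.921 (P28 litter 1), against 0.86 for P60 litter 2. In the 3′ to 5′ ratios the low P60 arrays are among the other 27. The best correlation of P60 litters 1 and 4 with any array was 0.9567 on chip A and 0.9559 on chip B. Results are therefore given with all litters, without P14 litter 1, and in a restricted set of arrays. That set also leaves out P60 litters 1 and 4 on chips A and B and P60 litter 2 on chip C. All 7 measured cortical excitatory neuron markers lay above the level of the Bacillus control probe sets, which served as background. All 11 member probe sets lay above that background in the mean of every age. Summed signals of 5 choroid plexus markers were 502 to 864 at P14, 1064 to 1925 at P28 and 1197 to 1576 at P60. In the same order, 5 hippocampal markers gave 565 to 765, 761 to 1190 and 873 to 1730. Meningeal markers (5) gave 11106 to 15847, 10509 to 15943 and 8650 to 23140. Thalamus markers (5) gave 1845 to 2295, 1852 to 2294 and 2075 to 2490. Of these, Kl, Iyd, Prox1 and Lhx9 were below background. The part of dissection was not tested. In such bulk tissue, fewer cells of a type and less RNA per cell cannot be told apart.

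On the log2 scale P14 litter 1 differed by 1 or more from the average of P14 litters 2 and 3 for 5 of the 11 members, in both directions. It was 2.97-fold above their log mean for Rtn4 on chip A, 2.51-fold above for Rtn4 106469_at, 2.51-fold above for Rtn4r and 1.98-fold above for Plat on chip A. It stood at 0.392 of their log mean for Lynx1 130772_at, 0.431 for Nptx1 on chip A and 0.515 for Nptx2. Over all 20724 probe sets tested, 21.8% differed by as much. The part of RNA quality in the members' values was not tested.

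**Figure D1:**
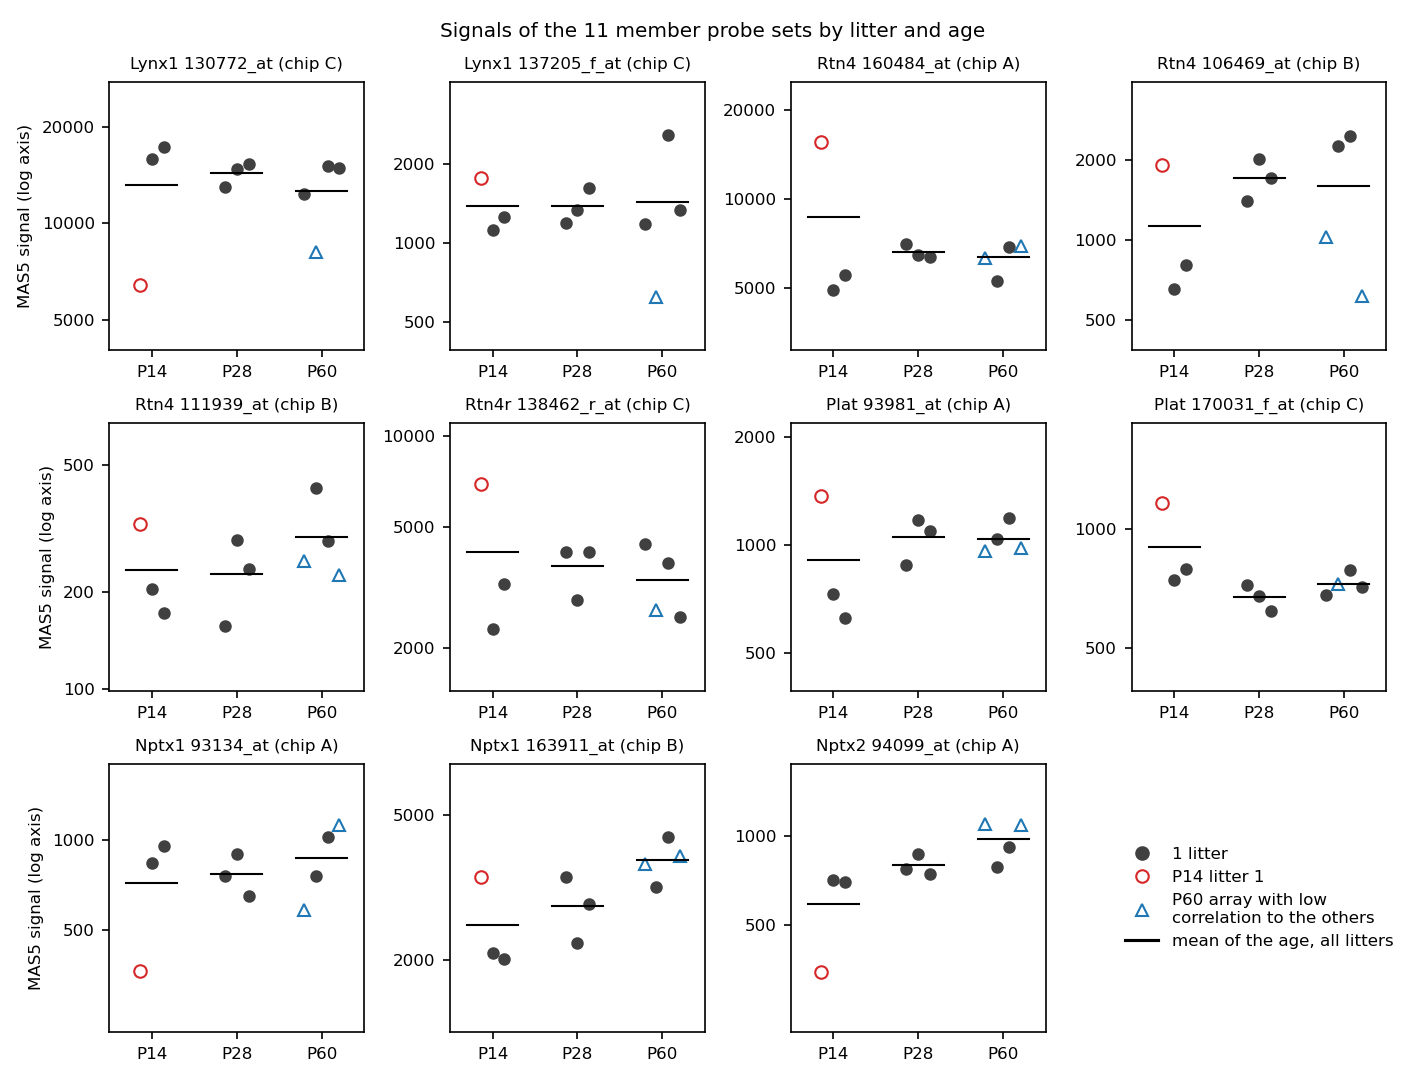
MAS5 signal (log axis) of each of the 11 member probe sets in every litter, by age, with a line at the mean of the age. The open red circle is P14 litter 1, which stands apart from the other P14 litters in most panels, and open blue triangles are the P60 arrays with a low correlation to the others.

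Every member probe set was bright enough to be tested, and with all litters none was called. In limma's fit over 20724 probe sets, 0 of 11 had an adjusted p under 0.05 in any of the 3 age comparisons or in the test of the 3 ages together. Over all probe sets the share called was 0.00483% for P28 with P14, 0% for P60 with P28, 0.396% for P60 with P14 and 0.111% for the 3 ages together. At an unadjusted p under 0.05 there were 0 of 11 members for P28 with P14 (7.87% of all probe sets), 0 for P60 with P28 (5.43%) and 2 for P60 with P14 (15.7%). Those 2 were the probe set of Nptx2 and 163911_at of Nptx1, and the same number passed unadjusted for the 3 ages together (11.3%). For P28 with P14 and for P60 with P14, 7 of 11 members had a positive log2 change, against 52.9% and 54.8% of all probe sets. Without P14 litter 1, 0 of 11 members were called for P28 with P14 (0.125% of all probe sets), for P60 with P28 (0.00483%) and for the 3 ages together (0.627%). In that setting every P28 litter lay above every P14 litter for 5 of 11 members (18.9% of all probe sets) and below for 2 (18.7%). Every P60 litter lay above every P14 litter for 4 of 11 (13.9%) and below for 1 (14.9%).

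The step from P28 to P60 is the one over which the critical period closes, and none of the 11 probe sets passed the test in it. Of the 11 probe sets, 5 had a positive log2 change, against 49% of all probe sets, and the changes ran from -0.28 to 0.42. For no member did every P60 litter lie above every P28 litter, which 3.9% of all probe sets did, or below every P28 litter (4.46%). No member had every P60 litter below every P14 litter (6.42%). The plot of log2 changes shows that with all litters the 95% interval of each member included 0 in this comparison, and the widest, that of Rtn4 106469_at, ran from -1.27 to 0.71. Without P14 litter 1 the interval of Nptx1 163911_at excluded 0, at 0.05 to 0.79 (limma adjusted p = 0.516). In the restricted set that of Rtn4 106469_at did so, at 0.07 to 0.87 (adjusted p = 0.686).

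**Figure D2:**
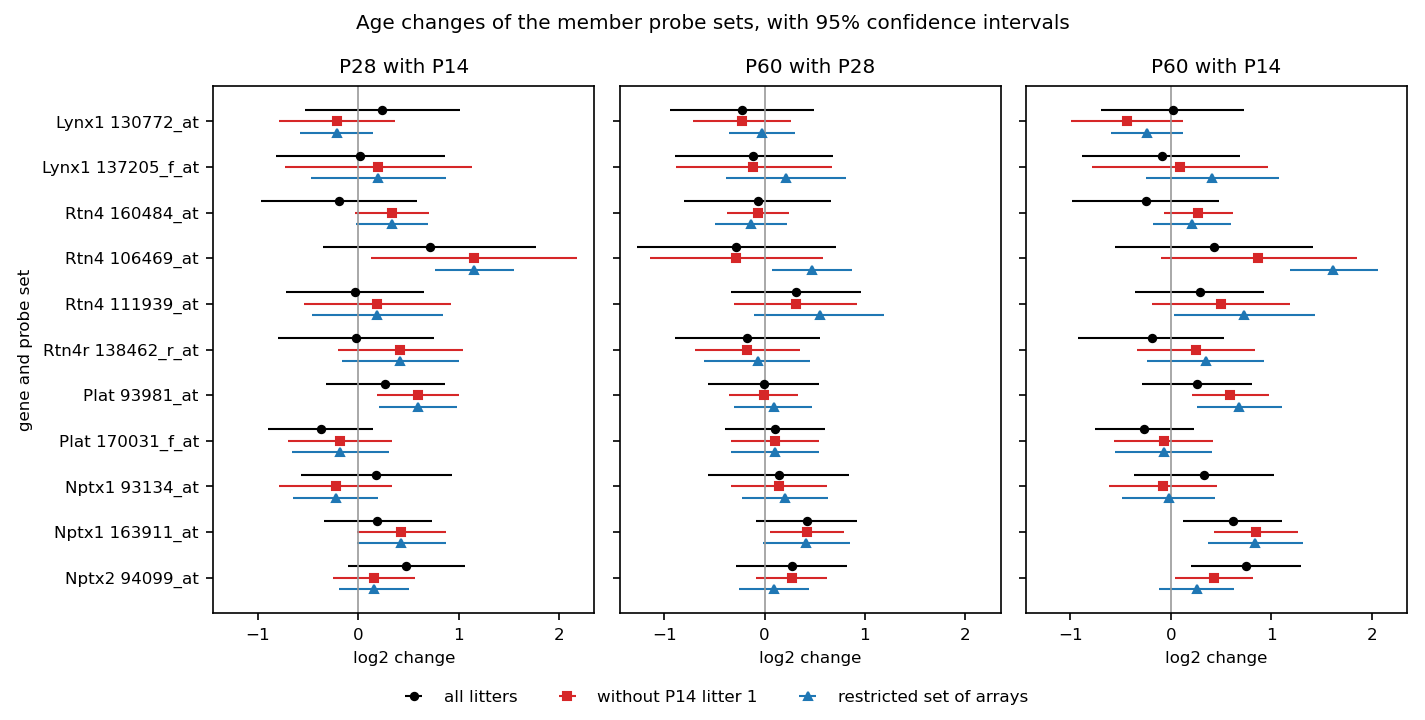
Log2 change of each member probe set with its 95% confidence interval, with 1 panel for each pair of ages. Black circles use all litters, red squares leave out P14 litter 1 and blue triangles use the restricted set of arrays. With all litters the intervals that exclude 0 are those of Nptx1 163911_at and Nptx2 for P60 with P14.

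Lynx1, the nicotinic receptor brake (chromosome 15, 74747856 to 74752979 in GRCm38.p6), did not pass the test in any comparison on either of its probe sets. On 130772_at (chip C) it had signals of 6459, 15894 and 17243 at P14, 12956, 14747 and 15258 at P28, and 12304, 8128, 15042 and 14865 at P60. The ages overlapped, and the low values were those of P14 litter 1 and of P60 litter 2, the array on chip C with the lowest correlation to the others. P60 with P28 had a log2 change of -0.22 (95% interval -0.94 to 0.49, limma adjusted p = 0.959). In the restricted set, without both of those arrays, the change was -0.03, with an interval from -0.35 to 0.30.

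Against P14 the direction of Lynx1 turned when P14 litter 1 was left out. The log2 change of P60 with P14 was 0.02 with all litters and -0.44 without P14 litter 1 (limma adjusted p = 0.986 and 0.374). With it left out, every P28 and every P60 litter lay below both other P14 litters, as did 18.7% and 14.9% of all probe sets. The other Lynx1 probe set, 137205_f_at, averaged 1378 ± 337 at P14, 1379 ± 217 at P28 (SD, n = 3 each) and 1427 ± 817 at P60 (SD, n = 4). Its P60 litters ran from 626 to 2564, a wider range than at the other ages, with the lowest again in litter 2. The f in its name marks probes that may match more than 1 related transcript, and the gene record of Lynx1 also lists SLURP-2 as a synonym.

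Rtn4, the gene for Nogo (chromosome 11, 29692898 to 29744414), did not pass the test with all litters on any of its 3 probe sets, whose differences from each other were not tested. On 160484_at (chip A) the signals were 15563, 4906 and 5524 at P14, 7009, 6463 and 6326 at P28, and 6293, 5266, 6866 and 6905 at P60. P28 and P60 overlapped, and both lay between P14 litter 1 and the other P14 litters, apart from P60 litter 2, at 5266. The log2 change of P60 with P28 was -0.07 (interval -0.80 to 0.66), and that of P28 with P14 was -0.19 with all litters and 0.34 without P14 litter 1 (limma adjusted p = 0.935 and 0.53).

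On 106469_at (chip B) Rtn4 had signals of 1910, 655 and 806 at P14, 1404, 2009 and 1705 at P28, and 1027, 2260, 2468 and 614 at P60. The high values at P14 and the low ones at P60 were those of the arrays that stand apart, P14 litter 1 and P60 litters 1 and 4. With all litters the log2 change was 0.71 for P28 with P14 and 0.43 for P60 with P14 (limma adjusted p = 0.775 and 0.667). Without P14 litter 1 alone the values were 1.15 and 0.87 (adjusted p = 0.415 and 0.312). The restricted set drops P60 litters 1 and 4 as well and leaves 2 litters at P14 and at P60. It was chosen with earlier results known, and it drops the highest P14 and the lowest P60 values of this probe set. Its p-values for this probe set therefore carry little weight. There the log2 change of P28 with P14 was 1.15 (interval 0.76 to 1.55, limma adjusted p = 0.0228). That of P60 with P14 was 1.62 (interval 1.19 to 2.06, adjusted p = 0.0066). That fit called 1 of 11 members in each of these comparisons, against 1% and 2.13% of all probe sets, and 1 of 11 for the 3 ages together, against 1.07%. The change of Rtn4 106469_at for P60 with P28 was 0.47 there (adjusted p = 0.686).

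The third Rtn4 probe set, 111939_at, was close to background, with means of 235.1 ± 81.7 at P14, 228.5 ± 67.8 at P28 (SD, n = 3 each) and 298.1 ± 88 at P60 (SD, n = 4), against a background of 153 on chip B. Over the 10 litters the correlation of log2 signals was 0.647 between both chip B probe sets of Rtn4, and 0.318 and 0.242 between them and the chip A probe set. These points share RNA, and for the chip B pair also the array. Because Rtn4 is known in oligodendrocytes as well as neurons, the myelin and mature oligodendrocyte markers are given beside it. The summed signal of 11 such markers, 1 of them (Cnp) below background and none at 0, was 7586 to 14173 at P14, 13190 to 21087 at P28 and 14806 to 20255 at P60. The highest P14 value was that of P14 litter 1. The part of these cells in the Rtn4 values was not tested.

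Rtn4r, the gene for the Nogo receptor (chromosome 16, 18127642 to 18152408), had signals of 6921, 2302 and 3251 at P14, 4152, 2890 and 4142 at P28, and 4394, 2667, 3802 and 2540 at P60. All 3 ages overlapped, and the highest value was that of P14 litter 1. The log2 change of P60 with P28 was -0.17 (interval -0.89 to 0.55, limma adjusted p = 0.965). That of P60 with P14 was -0.19 with all litters and 0.25 without P14 litter 1 (adjusted p = 0.805 and 0.647). The probe set, 138462_r_at, is of the r type, designed under relaxed rules.

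Plat, the gene for tissue plasminogen activator (chromosome 8, 22757722 to 22782848), had signals of 1373, 731 and 623 on 93981_at (chip A) at P14, 881, 1173 and 1094 at P28, and 963, 1035, 1186 and 979 at P60. P28 and P60 overlapped closely, and both lay above P14 litters 2 and 3 and below P14 litter 1. The log2 change of P60 with P28 was -0.01 (interval -0.56 to 0.54, limma adjusted p = 0.998). Plat without P14 litter 1 stood at 0.60 for P28 with P14 (interval 0.19 to 1.00, adjusted p = 0.255) and at 0.59 for P60 with P14 (interval 0.21 to 0.98, adjusted p = 0.0983), which did not pass. With array weights, which give deviating arrays less weight in the fit, both comparisons were called, at 0.59 and 0.55 (limma adjusted p = 0.0308 and 0.0399). That fit also called 5.61% of all probe sets for P28 with P14 and 17.5% for P60 with P14, so these Plat calls are read against a high background. It called 14.6% for the 3 ages together and 0% for P60 with P28.

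The other Plat probe set did not follow that course. On 170031_f_at (chip C) the signals were 1166, 741 and 792 at P14, 723, 677 and 619 at P28, and 681, 725, 788 and 711 at P60. Every P28 litter lay below every P14 litter, as for 8.41% of all probe sets, and the log2 change was -0.37 (interval -0.90 to 0.15, limma adjusted p = 0.765). Across the 10 litters both Plat probe sets had a correlation of 0.285, and of -0.473 across the 9 litters other than P14 litter 1. The annotation gives no accession for 170031_f_at, which is of the f type.

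Nptx1 and Nptx2, the pentraxin genes, had their highest mean of the 3 ages at P60 on each of their 3 probe sets, but none passed the test with all litters. For Nptx1 93134_at that order turned without P14 litter 1, with a mean of 873.6 at P60, against 897.9 at P14. Nptx2 (chromosome 5, 144545887 to 144557478) had signals of 345, 713 and 702 at P14, 775, 868 and 747 at P28, and 1105, 786, 923 and 1089 at P60. Every P28 litter and every P60 litter lay above every P14 litter, as did 9.45% and 6.61% of all probe sets, whereas P28 and P60 overlapped. Nptx2 averaged 975.7 ± 151 at P60 (SD, n = 4), against 586.8 ± 209 at P14 (SD, n = 3), a log2 change of 0.75 (interval 0.20 to 1.30, 1.68-fold) with an unadjusted p of 0.0111 and an adjusted p of 0.188 in limma. Without P14 litter 1 the change was 0.43 (interval 0.04 to 0.82, adjusted p = 0.223), and in the restricted set it was 0.26 (interval -0.12 to 0.63, adjusted p = 0.482). The restricted set drops the lowest P14 value of Nptx2, 345, and its highest P60 values, 1105 and 1089. Its smaller change therefore carries little weight.

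Nptx1 (chromosome 11, 119538719 to 119547820) had signals of 3384, 2080 and 2013 on 163911_at (chip B) at P14, 3387, 2223 and 2846 at P28, and 3667, 3179, 4349 and 3867 at P60. P14 litters 2 and 3 were lowest and 3 of the 4 P60 litters highest, with P14 litter 1 and P28 litter 1 between them. The log2 change of P60 with P14 was 0.62 (interval 0.12 to 1.11, 1.53-fold, limma adjusted p = 0.231). This Nptx1 probe set, without P14 litter 1, rose by 0.85 (interval 0.43 to 1.27, 1.81-fold, limma adjusted p = 0.0447). It was the 1 member of 11 called in that fit, against 2.4% of all probe sets. It was not called in the restricted set, at 0.84 (adjusted p = 0.0731).

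For P60 with P28, Nptx1 163911_at had the largest change of the 11 members, at 0.42 (interval -0.08 to 0.92, limma adjusted p = 0.897). The chip A probe set of Nptx1, 93134_at, had signals of 364, 837 and 959 at P14, 756, 899 and 652 at P28, and 582, 758, 1027 and 1128 at P60. Its ages overlapped, and P60 with P14 stood at 0.33 with all litters and at -0.08 without P14 litter 1 (adjusted p = 0.641 and 0.891). Both Nptx1 probe sets had a correlation of -0.123 over the 10 litters. Nptx1 163911_at and Nptx2 had a Pearson correlation of 0.214 and a Spearman correlation of 0.661 over 10 litters, and 0.695 and 0.817 over the 9 without P14 litter 1.

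Nptx2, Plat and Bdnf are known to be regulated by neuronal activity, so activity-regulated genes are given beside the pentraxins and Plat. The summed signal of 18 such genes, 1 of them (Arc) below background and none at 0, was 25289 to 41662 at P14, 30894 to 52603 at P28 and 37676 to 44497 at P60. P14 litter 1 held the highest P14 sum and the 3 ages overlapped. Of the 18, 17 were higher at P60 than at P28 (median 0.21 on the log2 scale), against 47.4% of all genes tested with a median of -0.02, and limma called 0. For P60 with P14, 15 of 18 were higher, with a median of 0.62 against 0.05 over all genes, and 0 were called. With P14 litter 1 left out, limma called 3 of the 18 as higher at P60 than at P14, namely Bdnf, Junb and Dusp1, against 0.943% of all genes called higher and 2.63% called in either direction. The part of activity in the pentraxin and Plat values was not tested. For Plat, which blood vessels also express, the summed signal of 9 endothelial and mural markers (Acta2 and Tek below background, none at 0) was 1385 to 2349 at P14, 1638 to 1762 at P28 and 1813 to 2296 at P60.

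**Figure D3:**
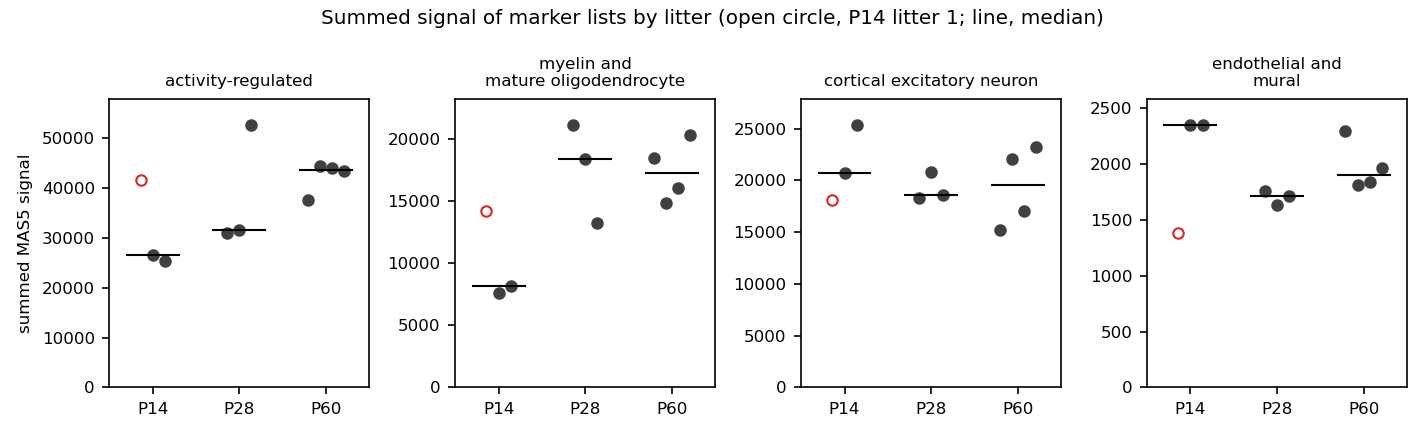
Summed MAS5 signal of 4 marker lists in each litter, by age, with a line at the median of the age and an open circle for P14 litter 1. The activity-regulated sums run from 37676 to 44497 at P60, where 2 of the 3 P28 litters are lower, and the myelin sums of P14 litters 2 and 3 lie below those of all later litters.

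The genes with the most similar pattern were found by the Pearson correlation of log2 signals over the 10 litters, among 11234 other genes, and are given as a description. For Lynx1 130772_at these were Rprml (r = 0.965), Ccdc136 (0.963) and Rtn4rl2 (0.958), a gene of the Nogo receptor family. For Rtn4 on chip A they were Fam3c (0.976), Strn3 (0.975) and Atp13a3 (0.975), and for Rtn4r they were Macir (0.956), Trnt1 (0.953) and Cinp (0.927). For Plat on chip A they were Ubl3 (0.951), the neurotrophin gene Bdnf (0.937) and Gdi2 (0.928). For Nptx1 on chip A they were Ctsb (0.933), Ehd1 (0.928) and Tmem143 (0.928), and for Nptx2 they were Neo1 (0.962), Tctn1 (0.962) and Mcm4 (0.955). Without P14 litter 1 these correlations ran from 0.808 for Tmem143 with Nptx1 to 0.949 for Bdnf with Plat, and that of Rtn4rl2 with Lynx1 was 0.948.

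Genes that act with the members were followed in 5 lists, with 1 probe set per gene, and for P60 with P28 limma called none of them. Of the nicotinic receptor and Ly6 protein list, 12 of 27 genes were tested, 5 were higher at P60 than at P28 (median log2 change -0.05) and 0 were called in any comparison. The largest changes of P60 with P14 were those of Chrna4, a nicotinic receptor subunit gene, at 0.94 (limma adjusted p = 0.359), the Lynx1-related Ly6h at 0.78 (0.312), Tmem35a, which encodes a receptor chaperone, at -0.58 (0.28) and Ache, the acetylcholinesterase gene, at -0.42 (0.685). Chrna4 had signals of 1024, 431, 224 and 1314 at P60, against 310, 293 and 278 at P14, and the high P60 values were those of litters 1 and 4.

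Of the Nogo receptor signalling list, 19 of 25 genes were tested, 9 were higher at P60 than at P14 (median -0.02), and 1 was called, Mag, which encodes a myelin protein that also binds the Nogo receptor. Mag had signals of 630, 945, 709 and 817 at P60, against 133, 295 and 353 at P14, a log2 change of 1.51 (SE 0.284, limma adjusted p = 0.0461). Every P60 litter lay above every P14 litter, as for 6.61% of all probe sets. Over 19 alternatives the change lay between 1.09 and 1.75, but 13 lost the call, with adjusted p up to 0.161. Among these were the replicate block (1.49, adjusted p = 0.161) and leaving out any 1 litter other than P14 litter 1 or P60 litter 3. With the block, and also without P14 litter 2, 0 of all 20724 probe sets were called for P60 with P14. Those losses are therefore not particular to Mag. Nus1 stood at -0.82 (adjusted p = 0.133), Lgi1 at -0.65 (0.246) and Rhoa, the small GTPase below the Nogo receptor, at -0.54 (0.373). Without P14 litter 1, Cfl1, which encodes the actin-severing protein cofilin, was called as well, at -0.95 (adjusted p = 0.0193), and in the restricted set so was Kalrn, a guanine nucleotide exchange factor gene, at 1.00 (adjusted p = 0.0326). For P60 with P28, 8 of the 19 were higher with a median of -0.06. In the restricted set 1 of the 19 was called as higher at P28 than at P14, against 0.472% of all genes called higher.

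Of the plasminogen and extracellular proteolysis list, 19 of 30 genes were tested and 0 were called with all litters, with 9 higher at P60 than at P14 (median -0.02) and 6 higher at P60 than at P28 (median -0.04). The largest changes of P60 with P14 were Anxa2, a plasminogen-binding annexin gene, at -1.09 (limma adjusted p = 0.186), the membrane protease genes Mmp16 at -1.03 (0.117) and Mmp17 at 1.00 (0.217), and the reelin receptor gene Lrp8 at -0.99 (0.217). In the restricted set the protease inhibitor gene Timp2 was called for P28 with P14, at -0.95 (adjusted p = 0.0404).

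Of the pentraxin and AMPA receptor list, 16 of 24 genes were tested, 6 were higher at P60 than at P14 (median -0.03) and 1 was called. Cacng4, an auxiliary AMPA receptor subunit gene, fell to 448, 753, 325 and 444 at P60, against 1603, 1861 and 2046 at P14, a log2 change of -1.83 (limma adjusted p = 0.0143). The call was lost under 5 of 19 alternatives, namely without P14 litter 2 or 3, without P60 litter 1 or 4, and with the litter number as a replicate block (-1.80, adjusted p = 0.108), with adjusted p up to 0.108 and changes between -2.04 and -1.51 over all 19. With that block, and without P14 litter 2, no probe set was called for P60 with P14, so those losses are not particular to Cacng4. Grip1, which encodes an AMPA receptor scaffold, stood at -1.22 (adjusted p = 0.175), Gria3 at -1.02 (0.176) and Neto1 at -0.96 (0.112). The next in size were positive, with Pick1 at 0.72 (0.237) and Gria1 at 0.70 (0.139). In the restricted set Cacng2, which encodes stargazin, was called as well, at -0.87 (adjusted p = 0.0387). For P60 with P28, 7 of the 16 were higher with a median of -0.01.

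Of the other genes named in work on closing or reopening cortical plasticity, 22 of 33 were tested, 9 were higher at P60 than at P14 (median -0.12) and 1 was called, Hapln4, a link protein gene of perineuronal nets, at 1.22 (limma adjusted p = 0.0491). The Hapln4 change lay between 1.08 and 1.48 over 19 alternatives, of which 13 lost the call, with adjusted p up to 0.176. Among these were the replicate block (1.08, adjusted p = 0.176) and leaving out any 1 litter other than P14 litter 1 or P60 litter 2. With the block, and without P14 litter 2, no probe set was called for P60 with P14, so those losses are not particular to Hapln4. Gad2 stood at -1.42 (adjusted p = 0.217), Erbb4 at 0.94 (0.364) and Ntrk2 at -0.86 (0.188). Without P14 litter 1, Gad2 at -2.07, Bdnf at 1.43 and Gad1 at 1.08 were called too (adjusted p = 0.0321, 0.0187 and 0.0187). In that fit 2.63% of all genes were called. Over all 11240 genes tested, 54.5% were higher at P60 than at P14, with a median of 0.05. For P60 with P28, 12 of the 22 were higher with a median of 0.06. In the restricted set 2 of the 22 were called as higher at P28 than at P14, against 0.472% of all genes called higher. There 3 were called as higher and 1 as lower at P60 than at P14, against 2.3% of all genes called in either direction.

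**Figure D4:**
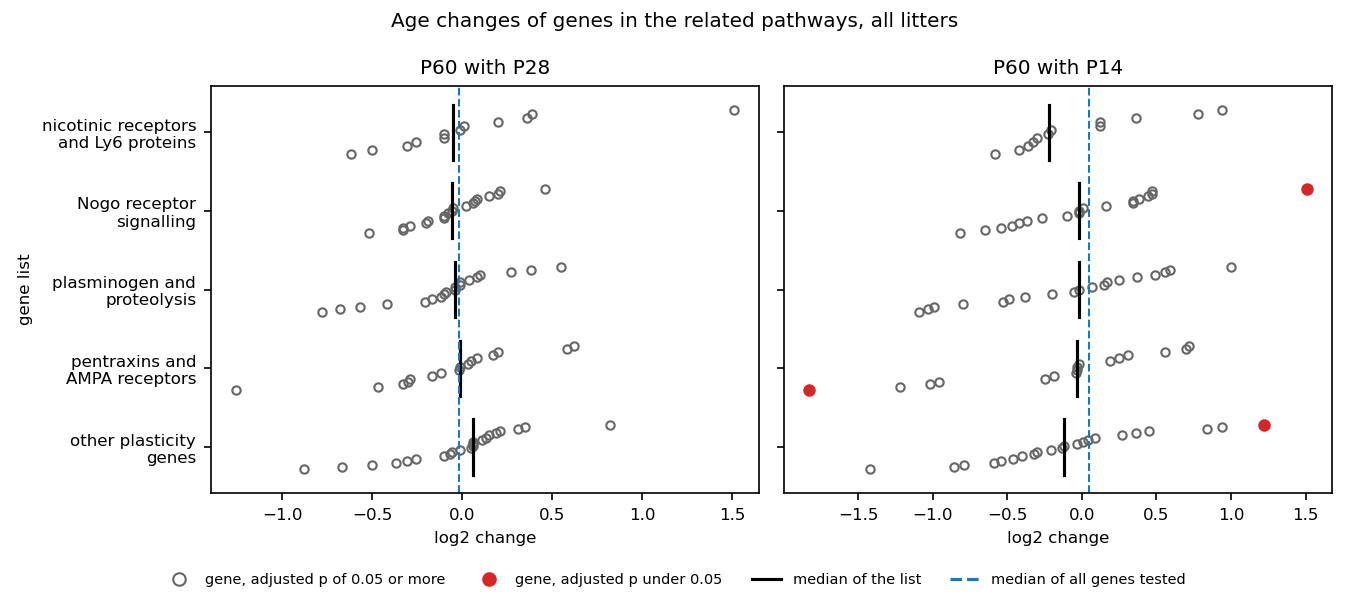
Log2 change of every tested gene in the 5 related gene lists, for P60 with P28 (left) and P60 with P14 (right), all litters. Filled red points passed an adjusted p of 0.05, black bars are list medians and the dashed line is the median of all genes tested. No gene passed for P60 with P28, and Mag, Cacng4 and Hapln4 passed for P60 with P14.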

How the data were processed

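Per the labels' protocols, RNA was extracted with Trizol from V1 of litters, and 6 µg of total RNA went into the biotinylated cRNA. The deposited values are signal intensities made with MAS5, per the submitters' processing notes. Their range shows a linear scale, and every array has a 2% trimmed mean near 500. Detection calls were not used here. Every sample title opens with the same litter number and then gives an age and another litter number. The latter was assumed to be the litter, so the 30 arrays were taken as 10 litters.

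Each chip type was fitted with limma 3.58.1 in R 4.3.3 (lmFit, eBayes with a variance trend) on log2(signal + constant), the constant being the 20th percentile of the chip's values (38.6, 57.8 and 44 on chips A, B and C). Probe sets above the chip's median on at least 3 arrays were tested, with all 10 litters and age as the only term. P-values were adjusted (Benjamini-Hochberg) over 20724 probe sets, with a threshold of 0.05, and assume separate litters, whose number limits the precision. Background was the 95th percentile of 15 Bacillus control probe sets per chip (98.4, 153 and 252). The fit was tested on simulated data. Gene symbols came from the array annotation, updated by gene ID. In each list, 1 probe set was kept per gene (chip A before B before C, then the brightest), and every called gene and the 4 largest changes of P60 with P14 were named. Genes of the lists called in the fits with fewer litters were named as well. The members, the lists and the restricted set were chosen with earlier results of these data known. Alternatives changed the constant, filter, normalization, variance model, array weights, adjustment, replicate block and litters.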

Additional observations from a re-analysis of the deposited data

How the results depend on the processing

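With all litters the number of members called was 0 in each comparison, and it was also 0 for P60 with P28 under all 19 alternatives. Over all probe sets P60 with P28 also had 0 calls, except without P14 litter 1, where 1 of 20724 was called. That 0 is therefore not particular to the members. For P28 with P14 the number of members called was 2 with array weights (Rtn4 106469_at and Plat 93981_at, with 1163 calls over all 20724 probe sets) and 1 in the restricted set (Rtn4 106469_at). For P60 with P14 it was 3 with array weights (Plat 93981_at, Nptx1 163911_at and Nptx2), 1 in the restricted set (Rtn4 106469_at), and 0 to 1 when 1 litter was left out, the 1 being Nptx1 163911_at without P14 litter 1. For the 3 ages together it was 3 with array weights (3024 calls over all probe sets, against 23 without them) and 1 in the restricted set. Array weights also raised the calls over all probe sets to 3621 for P60 with P14, against 82, and these counts ran from 0 without P14 litter 2 to 497 without P14 litter 1. The cause was not tested.

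Of 627 recomputed log2 changes of members, 563 kept direction and call, 8 were newly called and 56 changed sign, none of these called. No member was called with all litters, so no call could be lost. Many of the 563 could not change direction. Leaving out a litter does not alter the log2 change between the other ages, and the filter, variance model and adjustment do not alter any log2 change. The 563 are therefore not a measure of stability. With array weights the changed signs were Lynx1 130772_at at -0.11 for P28 with P14 and -0.26 for P60 with P14, Lynx1 137205_f_at at 0.03 for P60 with P14, Rtn4 111939_at at 0.23 for P28 with P14 and, in the same order of comparisons as the first, Rtn4 160484_at at 0.30 and 0.27, Rtn4r at 0.23 and 0.17, and Nptx1 93134_at at -0.23 and 0.00. In the restricted set they were, for P28 with P14, Lynx1 130772_at at -0.21, Rtn4 160484_at at 0.34, Rtn4 111939_at at 0.19, Rtn4r at 0.42 and Nptx1 93134_at at -0.22. For P60 with P28 they were Lynx1 137205_f_at at 0.21, Rtn4 106469_at at 0.47 and Plat 93981_at at 0.09. For P60 with P14 they were Lynx1 130772_at at -0.24, Lynx1 137205_f_at at 0.41, Rtn4 160484_at at 0.21, Rtn4r at 0.35 and Nptx1 93134_at at -0.02. With quantile normalization they were Lynx1 137205_f_at at 0.00 and Rtn4r at 0.07 for P28 with P14, and Rtn4 160484_at at 0.07 and Plat 93981_at at 0.01 for P60 with P28.

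Leaving out 1 litter at a time, the values that changed sign ranged as follows. P28 with P14 ran from -0.21 to 0.49 for Lynx1 130772_at, -0.12 to 0.20 for 137205_f_at, -0.49 to 0.34 for Rtn4 160484_at, -0.18 to 0.19 for Rtn4 111939_at, -0.36 to 0.42 for Rtn4r and -0.22 to 0.43 for Nptx1 93134_at. P60 with P28 ran from -0.44 to 0.21 for Lynx1 137205_f_at, -0.11 to 0.02 for Rtn4 160484_at, -0.55 to 0.08 for Rtn4 106469_at and -0.12 to 0.08 for Plat 93981_at. P60 with P14 ran from -0.44 to 0.27 for Lynx1 130772_at, -0.42 to 0.23 for 137205_f_at, -0.56 to 0.27 for Rtn4 160484_at, -0.53 to 0.25 for Rtn4r and -0.08 to 0.58 for Nptx1 93134_at.

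Litter numbers recur at each age, but no label ties them, so the numbers were not taken as pairs. Deviations of same-numbered litters correlated between -0.076 and 0.158, over 0.1 in 4 of 27 pairs. Of 27 arrays, 15 correlated best with their own number at another age. Whether that is more than unrelated litters would give was not tested. With the litter number as a replicate block, 0 members were called and the values that changed sign were Lynx1 130772_at at -0.08 for P60 with P14, and Rtn4 106469_at at 0.08 and Plat 93981_at at 0.02 for P60 with P28. Over all probe sets the block left 0 calls for P60 with P14, against 82 without it.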
